A study of Mus musculus with 4 samples.

Results

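Peptidylarginine deiminases (PADs) are the enzymes that convert arginine residues of proteins into citrulline. The mouse genes Padi1, Padi2, Padi3 and Padi4 were followed here in the transcriptome of muscle stem cells (MuSC), the satellite cells of skeletal muscle, in culture with and without the arginine methyltransferase Prmt5. The family was chosen by the difference of Padi2 between Prmt5-deficient and control libraries, which was already known from this same dataset. The group difference of Padi2 is therefore described without a test, and the same holds for its relatives. Of the 4 members, 3 have a row among the 20065 genes of the deposited table (Padi1, Padi2 and Padi3), all of which passed the filter on low values, and Padi4 has no row. The table lists no gene with an overall mean under 0.90 normalized counts, so the absence of a row gives no level for Padi4.

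Citrullination removes the positive charge of an arginine residue and needs calcium. Its target is the same side chain that the protein arginine methyltransferases modify, and a methylated arginine is a poor substrate of the PADs. Padi2 is the most widely expressed member and is the form best known from skeletal muscle, brain and myeloid cells. Padi1 and Padi3 are best known from epidermis and hair follicles, where they act on keratins, filaggrin and trichohyalin. Padi4 is best known from neutrophils, in which it citrullinates histones during the release of extracellular traps. Padi6, which lies in the same cluster and was not among the members, belongs to oocytes and early embryos.

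The RNA came from satellite cells of the limb and trunk muscles of adult mice on a C57BL/6 background, grown in culture. Control cells were Pax7CreERT2/Prmt5+/loxP with TAM (labelled wild type, although 1 Prmt5 allele was loxP-flanked), and Prmt5sKO cells were Pax7CreERT2/Prmt5loxP/loxP with TAM. Both groups thus carried the CreERT2 driver at Pax7, which limits recombination to Pax7-expressing cells, and both had the inducer; the study's methods describe treatment of cultured cells with 4-OH-TAM, whereas the labels give no route. Each group had 2 libraries, and the labels do not say whether these came from separate animals or cultures. The columns carry no replicate numbers, and the libraries are named by depth. Whole read counts recovered from the group means summed to 14436914 and 13240754 for control and to 20047430 and 16190414 for Prmt5sKO. Levels below are counts normalized by the trimmed mean of M-values (TMM). Within each group the deeper library is given first throughout. Prmt5 itself had 2273 and 2906 normalized counts in control against 244 and 202 in Prmt5sKO, the direction that the labels require. Myogenic identity was present in all 4 libraries, with Pax7 between 2570 and 3664 and Myod1 between 12152 and 15548 normalized counts. Each group also held 1 library with high and 1 with low Xist, the transcript of the inactive X chromosome (8668 and 23.3 in control, 8.15 and 5655 in Prmt5sKO). Ddx3y, a gene of the Y chromosome, was at 0 and 787 in control and at 1176 and 0 in Prmt5sKO. The libraries of a group thus differed in the sex of the cells, so they were not repeats of 1 source, and their spread includes that difference.

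The Padi genes form 1 cluster of 225 kb on chromosome 4 (GRCm38). Padi2 (ENSMUSG00000028927, 140906344 to 140952586) runs on the plus strand, and Padi1 (ENSMUSG00000025329, 140812983 to 140845778), Padi3 (ENSMUSG00000025328, 140785365 to 140810648), Padi4 (ENSMUSG00000025330, 140745865 to 140774236) and Padi6 (ENSMUSG00000040935, 140727355 to 140742643) run on the minus strand. Each main transcript has 16 exons. Padi1 and Padi2 therefore point away from each other, with 60.6 kb between their starts. The stretches just before the annotated starts of the 3 members with a row are printed because that of Padi2 holds more CpG dinucleotides than those of its relatives. The sequences are from RefSeq (GRCm38.p6), 5′ to 3′ on the strand of the gene, and capitals mark the motifs searched for.
Padi2, chr4:140906110-140906343, plus strand: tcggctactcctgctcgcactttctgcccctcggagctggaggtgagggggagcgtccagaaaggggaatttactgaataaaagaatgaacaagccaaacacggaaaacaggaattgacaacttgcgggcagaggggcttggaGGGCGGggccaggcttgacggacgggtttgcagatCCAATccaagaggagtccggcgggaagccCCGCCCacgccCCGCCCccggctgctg
Padi3, chr4:140810649-140810898, minus strand: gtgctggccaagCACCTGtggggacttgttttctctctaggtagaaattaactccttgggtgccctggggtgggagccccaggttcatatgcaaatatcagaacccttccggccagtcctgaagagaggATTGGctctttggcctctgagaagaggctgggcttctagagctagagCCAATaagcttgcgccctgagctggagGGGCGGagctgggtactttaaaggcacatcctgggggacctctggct
Padi1, chr4:140845779-140846028, minus strand: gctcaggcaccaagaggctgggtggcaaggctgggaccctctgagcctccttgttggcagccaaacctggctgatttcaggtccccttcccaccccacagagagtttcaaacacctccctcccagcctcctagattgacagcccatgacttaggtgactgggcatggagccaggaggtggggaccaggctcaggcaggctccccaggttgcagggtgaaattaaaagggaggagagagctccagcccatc

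The 250 bases before the RefSeq start were searched in each gene, on both strands, for the GC box GGGCGG bound by Sp factors, the CCAAT box CCAAT bound by NF-Y, the AP-1 site TGACTCA and the TATA box TATAAA. The E-box, the site of myogenic and other helix-loop-helix factors, was searched for as CAGCTG, as the form CAGGTG and, for Myc-like factors, as CACGTG. For Padi2 the last 16 of these bases lie inside the first annotated exon of GENCODE and are not printed. The Padi2 window held 17 CpG dinucleotides, more than 76.5% of the 32851 windows of all genes (median 6), with an observed-to-expected ratio of 0.72. The Padi3 and Padi4 windows held 3 CpG each, the Padi6 window 1 and the Padi1 window 0. GC content differed less, from 56% in Padi3 to 61.6% in Padi2 and 66% in Padi4. Padi2 had 3 GC boxes, at -107, -43 and -32 from the start, and 1 CCAAT box at -72. Padi3 had 1 GC box at -47, CCAAT boxes at -121 and -74 and the E-box CAGGTG at -238. Of all windows, 32.7% held a GC box, 33.8% a CCAAT box and 17.2% the E-box CAGGTG. The Padi1 window held none of the motifs, and the Padi4 window held an AP-1 site (4.46% of all windows), a TATA box (12.4%) and the E-box CAGGTG at 2 positions. None of these matches overlapped another. A match describes the letters of the window only.

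The coding sequences of the family are far apart. Over the aligned positions, Padi2 was 65.1% identical to Padi1, 64.3% to Padi4, 63.7% to Padi3 and 58.0% to Padi6, and the most alike pair was Padi3 and Padi4 with 67.2%. Of the 4972 words of 40 bases in the Padi2 transcripts, 208 (4.18%) also occurred in transcripts of other genes and 0 in another Padi gene. Padi3 and Padi1 shared 24 such words. How reads with several positions were counted is not stated in the sources used here.

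Padi2 lay higher in each Prmt5sKO library than in either control library. It had 184 and 114 normalized counts in control against 1239.6 and 2403 in Prmt5sKO, from 163, 88, 1673 and 2389 reads. The groups did not overlap, since the lower Prmt5sKO library lay 6.73-fold above the higher control library. The control mean was 149 ± 49.6 (SD, n = 2), the Prmt5sKO mean 1821 ± 822 (SD, n = 2), and their ratio 12.2. The fitted log2 difference in limma-voom was 3.55 with an SE of 0.52. These are the values for which the gene was chosen, and they carry no test.

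**Figure D1:**
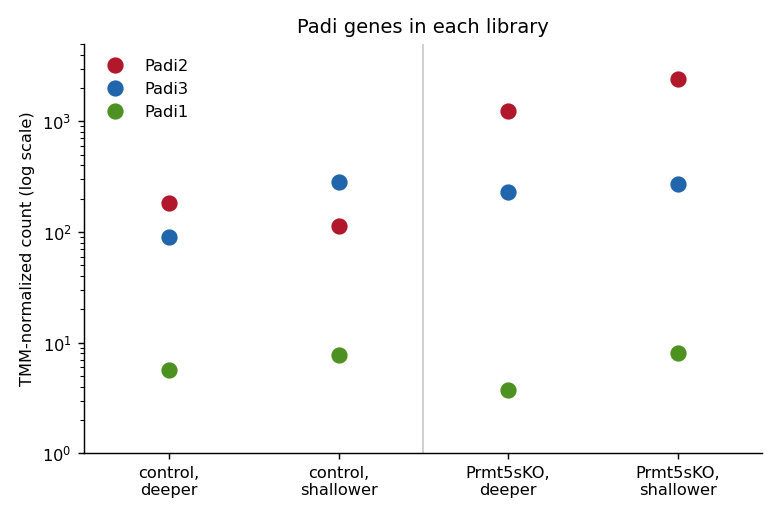
TMM-normalized counts (log axis) of Padi2, Padi3 and Padi1 in each of the 4 libraries, 1 point per gene and library. Padi2 lay at 184 and 114 in control and at 1239.6 and 2403 in Prmt5sKO, whereas Padi3 and Padi1 overlapped between the groups.

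Both pairs of libraries within a group differed as well. In control, Padi2 was lower in the shallower library by 0.69 on the log2 scale, and 25.9% of the 2940 genes with a control mean between 75 and 300 differed at least as much. In Prmt5sKO it was higher in the shallower library by 0.95, and 8.46% of the 3262 genes with a Prmt5sKO mean between 900 and 3600 differed at least as much. Between libraries of like Xist level, Padi2 was 13.0-fold higher in Prmt5sKO for the high-Xist pair and 10.9-fold for the low-Xist pair. Between libraries of like depth it was 6.73-fold higher for the deeper and 21.1-fold for the shallower pair.

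Among all genes, the place of Padi2 changed from the middle to the upper end of the levels. It lay above 55.6% and 52.0% of the 20065 genes in control and above 85.6% and 93.2% of them in Prmt5sKO, on the scale of counts not divided by length. The difference of Padi2 ranked 98 of the 16212 genes tested when these were sorted by log2 difference. Among the 3736 genes with a mean level at or above its own it ranked 1, and by the deeper Prmt5sKO library alone it ranked 4. That level is the mean over the 4 libraries (985), which Padi2 reached only through its Prmt5sKO values, since its control mean was 149. Both ranks rest on the difference by which the gene was chosen and are descriptions, and Myh1 and Acta1, a fast myosin heavy chain and skeletal actin, lay close behind with log2 differences of 3.52 and 3.51. The background of this comparison is wide. Groups did not overlap for 48.8% of all genes tested, 25.2% in the higher and 23.6% in the lower direction, and 9.97% were without overlap and at least 2-fold higher. By limma-voom with Benjamini-Hochberg adjustment, 0 of 16212 genes (0%) reached an adjusted p of at most 0.05 with a 2-fold change. The smallest adjusted p was 0.193, and 2101 genes (13.0%) had an unadjusted p under 0.05. With the libraries of like Xist level paired as a block, which puts each deeper with a shallower library, 346 genes were called, among them Prmt5, Myog and Ckm. The adjusted p-values below, and the counts of genes that reached the adjusted threshold, are those without the block. They take no account of the sex of the cells, so a gene not called there may be called with the block.

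**Figure D2:**
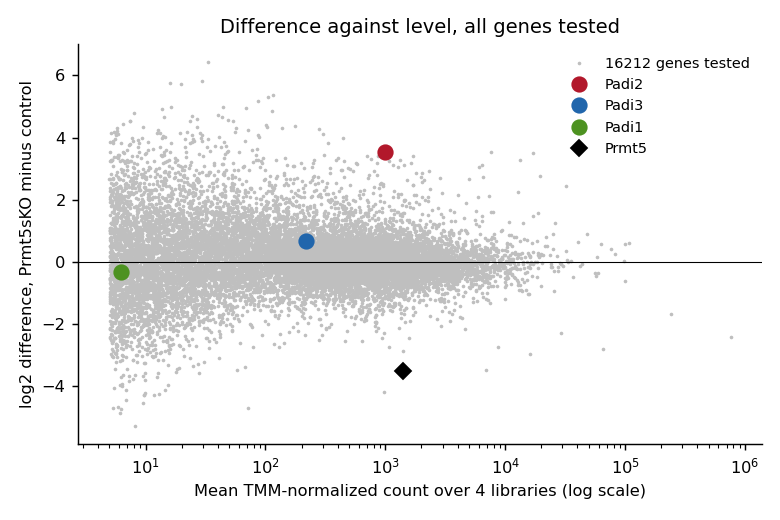
Log2 difference, Prmt5sKO minus control, against the mean TMM-normalized count over 4 libraries (log axis) for the 16212 genes tested, with the Padi members and Prmt5 marked. Padi2 (3.55) stood at the upper edge of the genes of its level, Padi3 (0.68) and Padi1 (-0.34) stood within the cloud, and Prmt5 (-3.52) stood at the lower edge.

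Padi3 did not follow Padi2. It had 89.3 and 285 normalized counts in control against 231 and 271 in Prmt5sKO, so both Prmt5sKO libraries lay between the control libraries. The groups overlapped, with means of 187 ± 139 (SD, n = 2) and 251 ± 27.8 (SD, n = 2) and a log2 difference of 0.68 (SE 0.53). The spread came from the control group, where the libraries differed by 1.67 on the log2 scale, and 4.32% of the 2940 genes of that level differed at least as much. Without the deeper control library the difference turned to -0.21.

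Padi1 was close to the limit of detection in every library. It had 5 and 6 reads in control and 5 and 8 reads in Prmt5sKO, or between 3.70 and 8.05 normalized counts. The groups overlapped, and the log2 difference of -0.34 had an SE of 1.04. It turned to 0.25 without the deeper Prmt5sKO library. A difference of Padi1 was not detectable at this depth. The opposite-strand gene Gm13032 shares 1200 of its 2001 exon bases with Padi1, and no source used here states that strand was used in counting, so the few Padi1 reads cannot be assigned with certainty. Padi6 had 1, 0, 1 and 3 reads.

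Which Padi transcript dominated therefore differed between libraries. Divided by the exon length in kilobases, the Padi2 level was 36.7 and 22.8 in control against 247 and 479 in Prmt5sKO. The Padi3 level on the same scale was 25.9 and 82.8 in control against 67.1 and 78.5 in Prmt5sKO, and the Padi1 level stayed between 0.987 and 2.14. The ratio of the Padi2 to the Padi3 level per kilobase was 1.42 and 0.275 in control against 3.69 and 6.11 in Prmt5sKO. The order of Padi2 and Padi3 was thus not the same in the 2 control libraries, while Padi2 led in both Prmt5sKO libraries, and Padi1 came last in all 4 libraries.

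**Figure D3:**
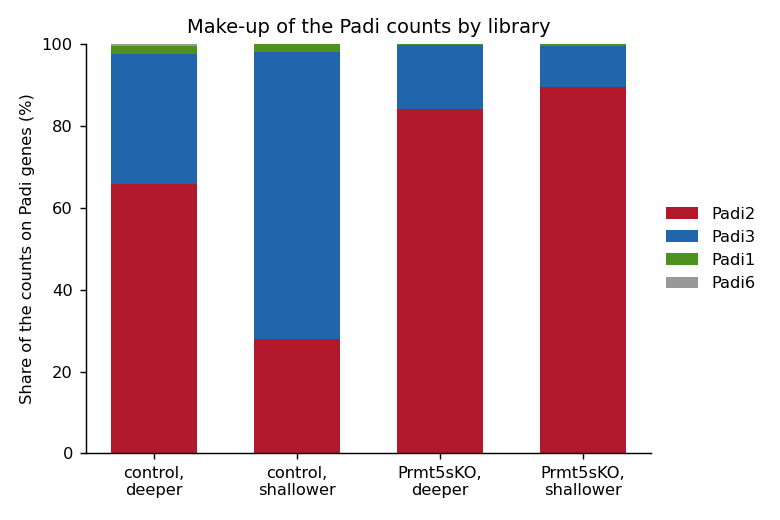
Share of the reads on Padi genes (%) that fell on Padi2, Padi3, Padi1 and Padi6 in each library, as stacked bars from 0 to 100%. Padi2 took 65.7% and 28.0% in control against 84.0% and 89.5% in Prmt5sKO.

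Summed over the family, the reads on Padi genes went from 17.2 and 23.7 CPM (counts scaled to the library total) in control to 99.3 and 165 CPM in Prmt5sKO. Padi3 held 31.9% and 70.1% of the family's reads in control against 15.7% and 10.1% in Prmt5sKO. The larger family sum in Prmt5sKO was thus mostly Padi2.

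Genes that lie inside or next to Padi2 were examined for reads that could belong to either gene. The small nuclear RNA gene Gm26226 lies in a Padi2 intron on the same strand, shares 0 exon bases with it and had 0, 0, 3 and 5 reads. The antisense gene Gm13031 shares 149 of its 924 exon bases with Padi2 exons, on the opposite strand. It had 0 and 7.78 normalized counts in control against 6.67 and 9.05 in Prmt5sKO, and the groups overlapped. Whether reads of the antisense gene were counted as Padi2 was not tested.

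The genes around the cluster did not move as a block with Padi2. Within 500 kb of the cluster, 26 other genes of 41 annotated had a row and 21 were tested. By limma-voom 0 reached the adjusted threshold. At an unadjusted p under 0.05, 1 was higher (6.01% of all genes tested) and 3 were lower (6.95% of all). The groups did not overlap for 6 genes in the higher direction and for 3 in the lower direction (against 25.2% and 23.6% of all genes tested). The median log2 difference of the 21 genes was 0.006, beside 0.02 over all genes tested.

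Rcc2, which codes for a regulator of chromosome condensation, is the nearest gene before the cluster, 4.14 kb from Padi6. It was lower, with 7596 and 8635 normalized counts in control and 4905 and 4677 in Prmt5sKO (log2 difference -0.76, SE 0.20, limma-voom adjusted p = 0.276). On the other side, 8.62 kb after Padi2, Sdhb, a subunit of succinate dehydrogenase, had 2469 and 2736 in control and 1916 and 2781 in Prmt5sKO, and the groups overlapped (log2 difference -0.17, SE 0.25). The value of Sdhb turned to 0.097 without the deeper Prmt5sKO library.

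Farther out, Atp13a2, a lysosomal transporter, lay higher without overlap (436 and 336 against 650 and 514; log2 difference 0.59, SE 0.27), and Mfap2 (-0.95, SE 0.98) and Arhgef10l (-0.27, SE 0.39) overlapped. Klhdc7a, the third gene with a row before the cluster, is 759 kb away and had 52.0 and 11.7 in control and 163 and 162 in Prmt5sKO (log2 difference 2.63, SE 0.69, limma-voom adjusted p = 0.276).

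**Figure D4:**
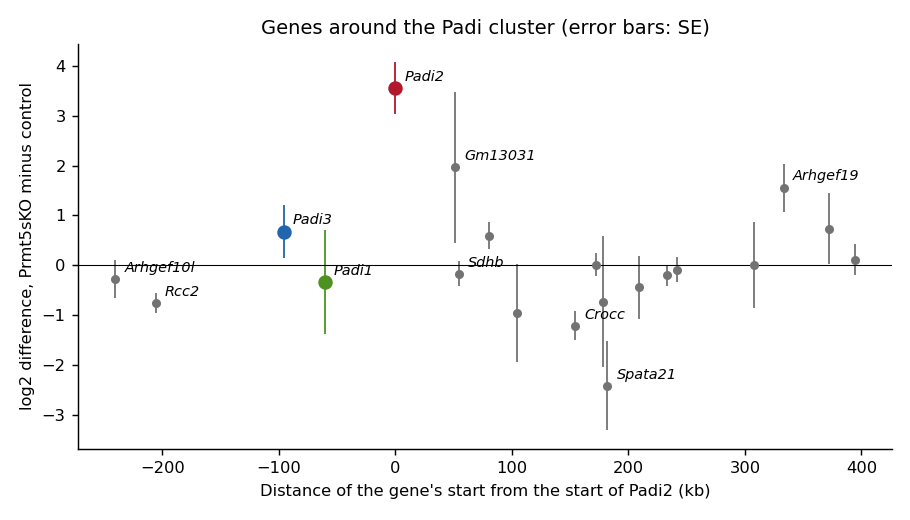
Log2 difference, Prmt5sKO minus control, with its SE, for the genes tested with a start within 400 kb of that of Padi2, against the distance of each gene's start from the start of Padi2 (kb). Padi2 stands at 3.55, and Sdhb and Rcc2 on either side of the cluster stand at -0.17 and -0.76.

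The markers of differentiated muscle differed between the 2 Prmt5sKO libraries, and Padi2 was set beside them for that reason. Of the 16 genes of this list, 11 lay higher in Prmt5sKO without overlap (25.2% of all genes tested) and 0 lower, 5 were higher at an unadjusted p under 0.05 (6.01% of all), and the median log2 difference was 2.90, while 0 reached the adjusted threshold. Their summed level was 57995 and 102530 normalized counts in control and 54589 and 443008 in Prmt5sKO. The sum of the deeper Prmt5sKO library thus lay below both controls, although 11 of the 16 genes were above both controls there, and the shallower one lay above all. Ttn, the giant sarcomere protein titin, set much of the sum, with 39149 and 90033 in control against 28428 and 171011 in Prmt5sKO.

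**Figure D5:**
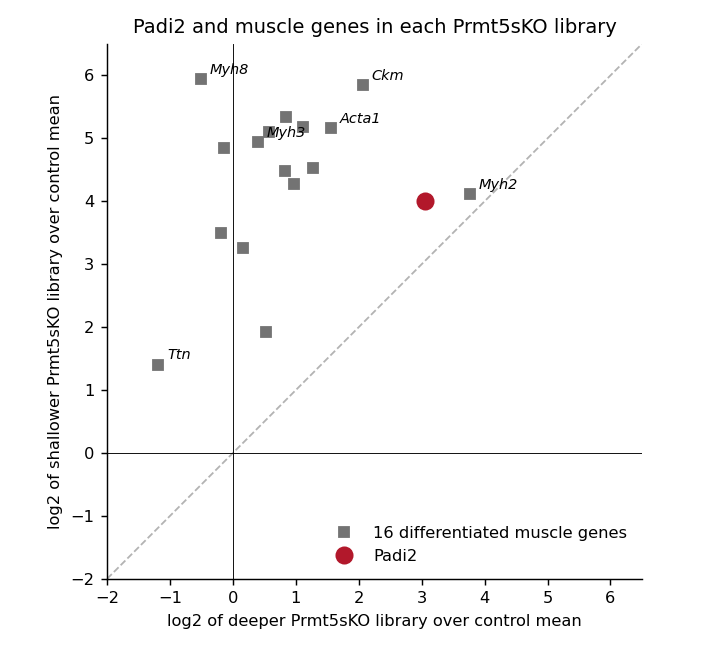
Log2 of the level in the deeper (horizontal) and shallower (vertical) Prmt5sKO library over the control mean, each with 1 count added, for Padi2 and 16 differentiated muscle genes; the dashed line marks equal values. Padi2 lies at 3.05 and 4.0, above the line by 0.95, and the muscle genes have medians of 0.70 and 4.69. Of the muscle genes only Myh2, at 3.77 and 4.11, lies nearer the line than Padi2.

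The values of Padi2 in these libraries, by which it was chosen, stand beside the muscle genes as a description. Relative to the control mean, with 1 count added, the 16 muscle genes had a median log2 of 0.70 in the deeper Prmt5sKO library (from -1.18 to 3.77) and of 4.69 in the shallower one (from 1.40 to 5.94). The same values for Padi2 were 3.05 and 4.0. Between the libraries the median log2 difference of the muscle genes was 3.67 and that of Padi2 0.95. Ckm, the muscle creatine kinase, and Myh3, the embryonic myosin heavy chain, gave log2 values of 2.06 and 0.40 in the deeper library against 5.85 and 4.94 in the shallower one. Myh2, a fast myosin heavy chain, had 9.04 and 0 normalized counts in control and 74.1 and 94.5 in Prmt5sKO (log2 difference 4.98, SE 1.34, limma-voom adjusted p = 0.276).

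Of the 8 myogenic cell genes, 2 lay higher and 1 lower without overlap (25.2% and 23.6% of all genes tested), and the median was 0.17. Myog, the factor that turns on in differentiating myoblasts, had 1436 and 1189 in control and 3707 and 19509 in Prmt5sKO (log2 difference 2.72, SE 0.71, limma-voom adjusted p = 0.276). Myf5, a factor of activated MuSC, was at -0.41 (SE 0.20), with groups that did not overlap. Myod1 (-0.04) and Des (0.67), the muscle intermediate filament, overlapped. Myod1 changed sign with scaling by library size alone, at 0.07.

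Cell types in which Padi genes are known to be active were looked for by their markers. The study's methods describe a sort of the satellite cells before culture, by a reporter or by surface markers that leave out myeloid, other blood and endothelial cells. In bulk RNA, more cells of a type and more RNA per cell cannot be told apart. The 6 mast cell markers had no row. Of the 6 neutrophil markers, S100a9 and Camp had rows and summed to 2.26 and 13.0 normalized counts in control and to 0.741 and 0 in Prmt5sKO. The 4 macrophage markers with a row of 6 summed to 122 and 144 in control and to 68.2 and 101 in Prmt5sKO. Most of that came from Cd68, a lysosomal protein, which was lower without overlap (log2 difference -0.99, SE 0.43). Csf1r (-0.27, SE 0.92), Lyz2 (-1.33, SE 2.26) and Itgam (2.21, SE 1.77) overlapped. Itgam had 4.52 and 0 in control and 3.70 and 22.1 in Prmt5sKO, so the sum hides a higher value in the shallower library. None of these sums was higher in Prmt5sKO than in both controls.

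The same held for endothelial cells, whose 5 markers with a row of 6 summed to 124 and 166.0 in control and to 91.9 and 57.3 in Prmt5sKO. Kdr, the receptor of vascular growth factor, was lower without overlap (-1.78, SE 0.56), and so was Pecam1 (-1.48, SE 0.72), whereas Tek, a receptor of angiopoietins, was higher without overlap (13.6 and 27.2 against 43.0 and 29.2; 0.91, SE 0.69). The 4 keratinocyte markers with a row of 6 summed to 153 and 174 in control and to 116 and 178 in Prmt5sKO, carried by Krt10 (0.08, SE 0.42) and Lor (-0.80, SE 0.64), while Krt5 and Krt14 had at most 3.70 normalized counts. Markers of oligodendrocytes and Schwann cells, the main Padi2-expressing cells of the nervous system, summed to 112 and 126 in control and to 137 and 157 in Prmt5sKO, without overlap. Mbp made up most of that sum, with 53.1, 83.0, 102 and 105 (log2 difference 0.64, SE 0.44), whereas Sox10 had at most 3.39.

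The fibroblast-like list gave 13369.9 and 5997 in control and 14050 and 16421 in Prmt5sKO, also without overlap, nearly all of it Col3a1 (0.79, SE 0.41), a collagen that the myogenic cells may also express. Of its other genes, Dcn had 115 in the shallower control library and between 7.91 and 16.1 in the other libraries (-0.98, SE 1.34). Whether cells of any of these types took part in the Padi2 difference was not tested.

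Enzymes and carriers that make or use arginine and citrulline were the first pathway list. Of 23 genes listed, 19 had a row and 17 were tested. At an unadjusted limma-voom p under 0.05, 1 was higher and 1 lower (6.01% and 6.95% of all genes tested). Without overlap, 5 lay higher and 2 lower (25.2% and 23.6% of all), and 0 reached the adjusted threshold. The median log2 difference was 0.17.

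Azin2, an antizyme inhibitor in polyamine control, had 212 and 149 in control and 405 and 352 in Prmt5sKO (log2 difference 1.08, SE 0.32, limma-voom adjusted p = 0.295). Slc7a1, the main carrier of arginine into cells, had 5265 and 4355 in control and 2801 and 2527 in Prmt5sKO (-0.85, SE 0.21, limma-voom adjusted p = 0.262). Nos1, the muscle nitric oxide synthase, which also yields citrulline but as a free amino acid, had 54.2 and 14.3 against 71.9 and 227 (2.03, SE 0.97). Its value ranged from 1.16 to 3.02 when 1 library was left out. Odc1, the first enzyme of polyamine synthesis, overlapped (-0.11, SE 0.35).

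Genes of proteins that PADs are known to citrullinate were examined next. Of 26 listed, 20 had a row and 18 were tested. At an unadjusted limma-voom p under 0.05, 1 was higher and 3 lower (6.01% and 6.95% of all genes tested). Without overlap, 3 lay higher and 5 lower (25.2% and 23.6% of all). The adjusted threshold was reached by 0, and the median log2 difference was 0.08. Vim, the intermediate filament vimentin, was the most abundant, with 114030 and 79279 in control and 96539 and 98382 in Prmt5sKO (0.04, SE 0.27). E2f1, a factor of the G1/S transition, had 946 and 1036 in control and 280 and 483 in Prmt5sKO (-1.46, SE 0.31, limma-voom adjusted p = 0.236). Npm1, the nucleolar protein nucleophosmin, was at -1.10 (SE 0.34, limma-voom adjusted p = 0.310), and Rps2, a ribosomal protein, at 0.90 (SE 0.55) with 54216 normalized counts in the deeper Prmt5sKO library alone. The abundant substrate vimentin was thus at a like level in both groups, whereas E2f1 and Npm1 were lower in both Prmt5sKO libraries. The 3 genes that lay higher without overlap, against 5 lower, were Elk1 (0.62, SE 0.22), Ing4 (0.56, SE 0.24) and Mbp (0.64, SE 0.44).

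Of 18 transcription factors tied to Padi genes in other cells, 16 had a row and were tested. At an unadjusted limma-voom p under 0.05, 2 were higher and 2 lower (6.01% and 6.95% of all genes tested). Without overlap, 4 lay higher and 3 lower (25.2% and 23.6% of all). The adjusted threshold was reached by 0, and the median log2 difference was 0.06. Fos, an AP-1 subunit, had 171 and 75.2 in control and 238 and 312 in Prmt5sKO (1.21, SE 0.45, limma-voom adjusted p = 0.355). Esr2, an oestrogen receptor, was at 2.25 (SE 1.49) with at most 16.1 normalized counts, and ranged from 0.58 to 4.06 when 1 library was left out. Jun (0.17, SE 0.22) and Trp53, the gene of p53 (0.04, SE 0.25), overlapped. Nfya, a subunit of NF-Y, was chosen after its values were seen; it had 1191 and 1150.3 against 663 and 509.9 (log2 difference -0.999, SE 0.23, limma-voom adjusted p = 0.251). Its partners Nfyb (-0.07) and Nfyc (0.08) overlapped.

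The protein arginine methyltransferases act on the same residues as the PADs. Of 9 listed, 7 had a row and were tested, while no row carried the symbol Prmt1 or Prmt8. This gives no level for them, since symbols were found for 19782 of the 20065 identifiers only. At an unadjusted p under 0.05, 0 were higher and 2 lower (6.95% of all genes tested were lower), 0 lay higher and 4 lower without overlap (23.6% of all were lower), and the median was -0.16. The 2 at an unadjusted p under 0.05 were Prmt5, the deleted gene (-3.52, SE 0.27, limma-voom adjusted p = 0.193), and Carm1, a type I enzyme, with 1957 and 1952 in control and 859 and 1095 in Prmt5sKO (-1.01, SE 0.22, limma-voom adjusted p = 0.240). Prmt7, the most abundant by its mean over the 4 libraries, was at -0.15 (SE 0.20), with groups that did not overlap. None of the 7 had each Prmt5sKO library above either control.

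The genes most like Padi2 were found from the pattern over the 4 libraries, as the root mean square difference of log2 levels, with 1 count added and each gene centred on its mean. Over 16212 genes, the 5 nearest were Cd180 (0.146), Gp1bb (0.218), Fam178b (0.243), Sv2b (0.249) and A930029G22Rik (0.254), all on other chromosomes. They are low: Cd180, a receptor of B cells and macrophages, had 1.13 and 0 in control and 11.9 and 24.1 in Prmt5sKO, and Sv2b, a synaptic vesicle protein, had 5.65, 2.59, 28.2 and 58.3. Apart from Sv2b, none had more than 1.13 in a control library, where the added count weighs heavily. The 5 genes passed the filter, a mean of at least 5, only through their Prmt5sKO values. A total of 54 genes lay within 0.5 of Padi2. With scaling by library size alone, 4 of the 5 were again among the 5 nearest.

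At a mean of at least 100 normalized counts, a limit chosen after the data were seen, the 5 nearest of 10305 genes were other ones. Cemip, a hyaluronan-degrading factor, was at 0.341, with 65.5 and 24.6 in control and 246 and 499.8 in Prmt5sKO. Wnt9a, a secreted Wnt ligand, was at 0.345, with 108 and 80.4 in control and 622 and 886 in Prmt5sKO. Ogn, a small matrix proteoglycan, Snord7, a small nucleolar RNA, and Pltp, a lipid transfer protein, followed at 0.412, 0.427 and 0.437. Cemip, Ogn and Pltp lay under 100 in both control libraries. Wnt9a lay under 100 in the shallower control library only, but its control mean was also under 100. Cemip, Ogn, Pltp and Wnt9a thus passed the limit through Prmt5sKO. Each of the 5 genes had its higher Prmt5sKO value in the shallower library, as Padi2 had. That direction is part of the pattern by which they were picked. Likeness over 4 libraries is a description of these values only.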

How the data were processed

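Cultured MuSC of 2 control and 2 Prmt5sKO libraries were sequenced on the Ion Torrent Proton after ribosomal depletion. The authors trimmed the reads with Reaper and, per the submitters' processing notes, used STAR 2.4.0a, DESeq2 1.62 and the builds mm10 and GRCm38; the counting tool is not given in the sources used here. The deposited signal values are the authors' group means of size-factor-normalized counts. The deposited log2 fold changes with their standard errors, and the raw and adjusted p-value columns that were deposited, hold the authors' own comparison and were not used.

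Every group mean adds up multiples of 1 read of each library, and solving for these multiples returned whole counts per library for 100% of 20065 genes (largest relative residual 5.4e-15). Counts were scaled by TMM (trims of 30% and 5%), genes with a mean of at least 5 were fitted with limma-voom (limma 3.58.1, R 4.3.3), and p-values were adjusted by Benjamini-Hochberg over 16212 genes. Genes were called at an adjusted p up to 0.05 with a change of 2-fold or more. The scripts were tested on simulated data. With 2 libraries per group, the p-values set the group difference against the spread between libraries, which limma estimates in part from all genes. They cover these libraries only. Total counts of 13240754 to 20047430 put 3 reads at 0.150 to 0.227 CPM (counts scaled to the library total).

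GENCODE release M21 gave symbols and coordinates for 19782 of the 20065 identifiers. A gene listed under an unmatched identifier would be counted here as having no row. Promoter windows came from RefSeq, and coding sequences were aligned with Biopython 1.88. The members and lists were chosen with earlier results of these data known. The genes named are the members, Padi6, Prmt5, the 3 nearest genes on either side of the cluster, the 2 most abundant and the 2 most different non-overlapping genes of each list, and the 5 genes most like Padi2. Of the genes so named, 1 is not reported here. Alternatives were other scalings, no filter, pseudocounts, each library left out, both pairings as a replicate block and limma-trend.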

Additional observations from a re-analysis of the deposited data

How the results depend on the processing

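The log2 difference of Padi2 stayed between 3.07 and 4.03 under 14 alternatives, lowest and highest without the shallower and the deeper Prmt5sKO library. Padi3 ranged from -0.21 to 1.48 when 1 library was left out. The count of genes called, 0 in limma-voom with 2101 at an unadjusted p under 0.05, ranged from 0 to 489 with 1 library left out (489 without the deeper and 55 without the shallower Prmt5sKO library, where the lone library is assumed to vary like the other group) and was 1 in robust limma-trend. No replicate numbers stand in the columns, so either pairing was fitted as a replicate block. With the deeper libraries paired it called 0 genes and Padi2 was at 3.56, and with deeper paired to shallower, which pairs libraries of like Xist level, it called 346 genes and Padi2 was at 3.60. The deviations of the libraries correlated at -0.29 over 11487 genes in the former pairing. The value of 0.29 for the latter is the same number with its sign turned and adds nothing to it.

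Pathway list genes with an unadjusted p under 0.05 numbered 12 and ranged from 5 (without the shallower control library) to 18 with 1 library left out, and those without overlap numbered 26 and ranged from 37 to 47. Around the cluster the counts were 4, from 2 (without either control library) to 5, and 9, from 13 to 17. Counts without overlap grow because fewer libraries are compared. With all 4 libraries, 13.0% of all genes tested had an unadjusted limma-voom p under 0.05 and 48.8% were without overlap. A mean of at least 100, an alternative added after the data were seen, kept 0 of the 5 genes most like Padi2.

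Leaving out 1 library turned the sign of these named genes, whose log2 differences then ranged from -0.59 to 0.38 (Odc1), -0.22 to 0.28 (Vim), -0.22 to 0.30 (Trp53), -0.22 to 0.14 (Myod1), -1.07 to 1.52 (Ttn), -1.11 to 0.77 (Csf1r), -2.97 to 0.83 (Dcn), -0.15 to 0.30 (Krt10), -1.54 to 0.11 (Lor), -0.44 to 0.097 (Sdhb) and -0.84 to 0.32 (Arhgef10l). Without a turn of sign, the ranges were 0.67 to 1.82 (Fos), 0.58 to 4.06 (Esr2), 1.16 to 3.02 (Nos1), 0.20 to 1.38 (Col3a1), 1.5 to 3.90 (Myog), 2.21 to 6.00 (Ckm), 3.12 to 6.99 (Myh2), 0.44 to 4.98 (Myh3), 0.011 to 1.82 (Rps2), -1.56 to -0.65 (Npm1), -2.26 to -0.86 (Pecam1), 0.29 to 0.95 (Mbp), 0.074 to 1.24 (Des) and -1.68 to -0.054 (Mfap2). Scaling by library size alone put Myod1 at 0.067, and the block of deeper with shallower put Csf1r at 0.013. The causes were not tested. With 2 libraries per group the spread between them limits what can be called, and for Padi1 so does depth.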
